A study of Homo sapiens with 12 samples.

Results

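The 37 genes described here are members of the p53 pathway, most of them direct transcriptional targets of p53, and were read in 12 RNA-seq libraries from 3 mantle cell lymphoma (MCL) cell lines. They were chosen by name as a list, with earlier results of these data known. All 37 were found among the 63677 genes of the count table, and 36 of them were among the 18674 genes with enough reads to be tested. KITLG, the ligand of the KIT receptor, was the member left out, with 3 reads in JEKO1, 2 in JVM2 and 1 in MAVER1 over all 4 treatments.

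The established MCL lines JEKO1, JVM2 and MAVER1 were each grown for 48 h in 4 ways, namely untreated (control), with ironomycin, with ibrutinib, or with both drugs. Ironomycin, made from the ionophore salinomycin, traps iron in lysosomes, and ibrutinib blocks Bruton's tyrosine kinase (BTK) in B-cell receptor signaling. Ironomycin was given at 50 nM to JEKO1 and at 250 nM to JVM2 and MAVER1, and ibrutinib at 0.5 μM to JEKO1, 1.5 μM to JVM2 and 6.25 μM to MAVER1. JVM2 was kept in RPMI medium with 10% FCS and plated more sparsely, while JEKO1 and MAVER1 were kept with 20% FCS, so that JVM2 and its culture cannot be told apart. The ironomycin dose was the same in JVM2 and MAVER1, and the controls had no drug. Each line gave 1 library per treatment, and a p-value between lines therefore measures the spread between libraries of these 3 lines, which may be technical, and not between MCL lines with and without p53. The study describes JVM2 as expressing wild-type p53 and MAVER1 as possibly lacking functional p53. The status of JEKO1 is not given in the sources used here.

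p53 is a sequence-specific transcription factor that accumulates after DNA damage and other stress and switches on genes for cell cycle arrest, DNA repair, apoptosis and metabolism. It is held low by MDM2, a ubiquitin ligase whose own gene is a p53 target, and by the MDM2 relative MDM4, so that the pathway carries its own negative feedback. The question addressed was how the members stood in JVM2 beside JEKO1 and MAVER1, and how they moved with the drugs in each line.

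p53 binds DNA as a tetramer to a pair of 10-base half-sites, and the windows below are shown because these members were all higher in JVM2 and carry an exact half-site next to their start. The windows are from RefSeq on GRCh38.p14 and run from 250 bases before to 50 bases after a transcription start, 5′ to 3′ on the strand of the gene, with the half-sites in capitals. DDB2 is at chr11:47214724-47215023 on the plus strand, FAS at chr10:88991181-88991480 on the plus strand, FDXR at chr17:74872945-74873244 on the minus strand, PLK2 at chr5:58460037-58460336 on the minus strand and RPS27L at chr15:63157428-63157727 on the minus strand.
DDB2: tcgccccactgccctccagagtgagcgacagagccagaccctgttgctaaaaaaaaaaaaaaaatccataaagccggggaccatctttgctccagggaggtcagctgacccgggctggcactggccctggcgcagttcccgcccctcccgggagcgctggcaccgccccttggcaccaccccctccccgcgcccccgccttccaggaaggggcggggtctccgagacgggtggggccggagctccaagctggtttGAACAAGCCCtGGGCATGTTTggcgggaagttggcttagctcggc
FAS: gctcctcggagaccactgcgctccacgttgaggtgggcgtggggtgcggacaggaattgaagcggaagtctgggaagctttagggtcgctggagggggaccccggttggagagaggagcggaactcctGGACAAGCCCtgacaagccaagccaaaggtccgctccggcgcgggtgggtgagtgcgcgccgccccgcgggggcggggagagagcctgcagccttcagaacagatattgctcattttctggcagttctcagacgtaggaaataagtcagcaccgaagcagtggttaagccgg
FDXR: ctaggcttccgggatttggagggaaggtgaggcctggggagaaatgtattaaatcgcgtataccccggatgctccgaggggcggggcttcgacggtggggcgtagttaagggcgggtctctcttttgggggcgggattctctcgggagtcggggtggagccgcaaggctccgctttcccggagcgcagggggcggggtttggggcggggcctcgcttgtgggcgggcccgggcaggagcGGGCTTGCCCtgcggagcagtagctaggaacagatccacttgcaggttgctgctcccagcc
PLK2: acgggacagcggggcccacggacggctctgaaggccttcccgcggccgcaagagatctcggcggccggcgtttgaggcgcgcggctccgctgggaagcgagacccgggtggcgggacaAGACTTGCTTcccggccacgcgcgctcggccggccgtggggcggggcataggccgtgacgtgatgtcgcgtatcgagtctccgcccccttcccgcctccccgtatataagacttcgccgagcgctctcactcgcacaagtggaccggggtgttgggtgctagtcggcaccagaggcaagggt
RPS27L: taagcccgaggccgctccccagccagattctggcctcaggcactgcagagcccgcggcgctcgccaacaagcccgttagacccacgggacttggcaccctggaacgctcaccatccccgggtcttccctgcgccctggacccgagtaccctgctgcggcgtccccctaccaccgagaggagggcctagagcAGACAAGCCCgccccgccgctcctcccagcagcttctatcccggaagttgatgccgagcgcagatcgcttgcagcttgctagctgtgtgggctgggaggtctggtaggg

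The p53 half-site reads alike on both strands and was searched with no mismatch. In DDB2 the half-sites GAACAAGCCC and GGGCATGTTT start at bases 6 and 17 after the start, counted with the start as base 1, and are 1 base apart. In FAS, GGACAAGCCC begins 122 bases before the start, in FDXR GGGCTTGCCC begins 11 bases before it, in PLK2 AGACTTGCTT 132 bases before it and in RPS27L AGACAAGCCC 59 bases before it. AEN (GGGCTTGCCC, 34 bases before the start) and SESN1 (GGACAAGTCT, 49 bases before it) also held a half-site. Neither was called higher in JVM2, and their windows are not shown. The windows shown were thus picked in part by level. Of the 28 members with a window in the RefSeq table, 7 (25%) held a half-site in any of their windows, beside 8.06% of the 27305 genes of the table. Counted by window, 7 of 40 member windows (17.5%) held one, beside 6.63% of all 35116 windows. FAS and SESN1 had 3 windows each and DDB2 and FDXR 2 each, for different starts, and only 1 window of each gene held a match. A pair of half-sites with at most 13 bases between them was in 10 windows of the whole table (0.0285%), and the DDB2 window was 1 of them. A match is a string of letters and not a measured binding site, and many known p53 sites lie outside such windows. ASCC3, CMBL, FBXO22, GADD45A, PHLDA3, TNFRSF10A, TNFRSF10B, TP53INP1 and TRIM22 had no window in the table.

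The libraries held 35448523 to 38630809 counted reads, with TMM factors of 0.914 to 1.19. The B-cell markers CD79A, MS4A1, CD79B, PAX5, CD22 and EBF1 were read in every library, at levels that differed between lines in both directions. MS4A1 was at 444 to 573 CPM (reads per 1e6, after TMM scaling) in JVM2, 245 to 360.4 in JEKO1 and 329 to 431 in MAVER1, CD79B at 97.4 to 123, 416 to 839 and 329 to 559.7, and CD22 at 311 to 358, 9.18 to 26.8 and 18.0 to 58.6 in the same order. The 4 T-cell and 4 myeloid markers reached at most 4.88 CPM (CSF1R in JVM2), with CD3D at 0 in JVM2 and MAVER1 and CD14 at no more than 0.335 CPM. Of the MCL markers, SOX11 had 0 reads in the 4 JVM2 libraries, and CD5 had 1 or 2 in each. CCND1, which encodes cyclin D1, was at 216 to 322 CPM in JVM2, 2182 to 3513 in JEKO1 and 4252 to 4828 in MAVER1. In bulk RNA, fewer cells of a kind and less RNA per cell cannot be told apart. The library kit kept strand, but the strand setting of the counting is not given, so reads of genes that overlap another gene on the opposite strand may include reads of that partner. Such overlaps were annotated for CDKN1A with DINOL, FAS with ACTA2, MDM2 with CPM, TNFRSF10A with TNFRSF10A-AS1, TNFRSF10B with RHOBTB2, XPC with LSM3, PIDD1 with RPLP2 and PANO1, POLH with GTPBP2, PLK3 with TCTEX1D4, APAF1 with ANKS1B, FBXO22 with NRG4, TP53I3 with FAM228B and TP73 with TP73-AS1, and for SESN1 and TIGAR with unnamed transcripts.

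TP73, a p53 relative that can bind the same sites, was at 123 to 141 CPM in JVM2, 10.5 to 15.9 in JEKO1 and 8.05 to 12.5 in MAVER1, with reads of the antisense TP73-AS1 possibly among them. CDKN2A, whose ARF product restrains MDM2, was at 17.5 to 32.6 CPM in JVM2 and 89.9 to 132 in JEKO1, while MAVER1 had at most 2 reads in a library.

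Most members were higher in JVM2. Lines were compared with edgeR's quasi-likelihood test over all 12 libraries with treatment as a term, and a gene was called where it differed by 1 or more on the log2 scale and its Benjamini-Hochberg adjusted p was under 0.05. Of the 36 members tested, 20 were called higher in JVM2 than in the mean of JEKO1 and MAVER1, 2 were called lower (CCNG2 and MDM4) and 14 were not called. EDA2R, SPATA18 and CMBL, counted here and below, had enough reads to be tested only through the JVM2 libraries. They could therefore only be called higher in JVM2. Over all genes tested, 40.7% were called, 21.1% higher and 19.5% lower, so line differences were common and the members' share called higher (55.6%) stood above that background while their share called lower (5.56%) stood below it. The list was chosen with earlier results of these data known, so these shares are a description and not a test. The median log2 fold change of the 36 members was 1.25, also with EDA2R and SPATA18 at their bounds, beside -0.02 for all genes. Against JEKO1 alone, 19 members were called higher and MDM4 and CCNG2 lower (of all genes, 46.8% called, 22.8% higher and 23.9% lower), and against MAVER1 alone again 19 higher and TP53INP1 and TNFRSF10A lower (of all genes, 40.0% called, 21.4% higher and 18.5% lower). In both of these comparisons together 17 members were called higher, beside 14.8% of all genes. The 4 JVM2 libraries all lay above the 8 others in 22 members (23.4% of all genes), all below them in 2 (19.2% of all genes), and overlapped them in 12.

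**Figure D1:**
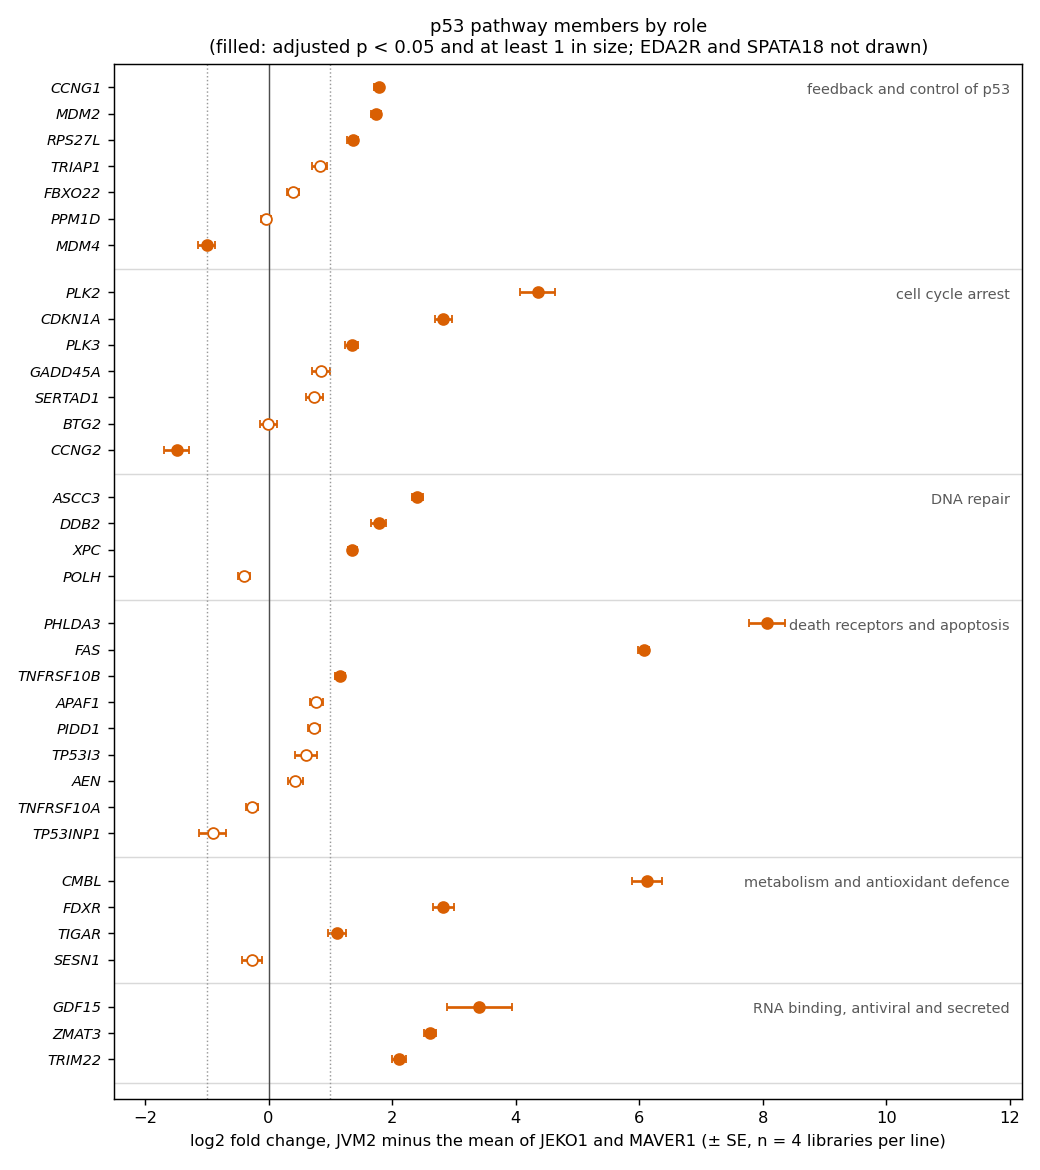
Log2 fold change of JVM2 against the mean of JEKO1 and MAVER1 (x axis, ± SE, 4 libraries per line) for 34 tested members grouped by role, with filled points for called members. All filled points but 2 lie to the right of 1, and CCNG2 at -1.49 and MDM4 at -1.0001 lie to the left of 0.

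The same comparison centred on the other lines gave the opposite balance. In JEKO1 against the mean of JVM2 and MAVER1, 2 members were called higher (TP53I3 and CCNG2) and 15 lower, beside 36.4% of all genes called, 20.6% higher and 15.8% lower. In MAVER1 against the mean of JEKO1 and JVM2, 3 were called higher (FAS, TNFRSF10A and TP53INP1) and 8 lower, beside 30.6% of all genes called, 14.8% higher and 15.8% lower. These comparisons share the libraries of all 3 lines and are not independent of the JVM2 comparison.

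**Figure D2:**
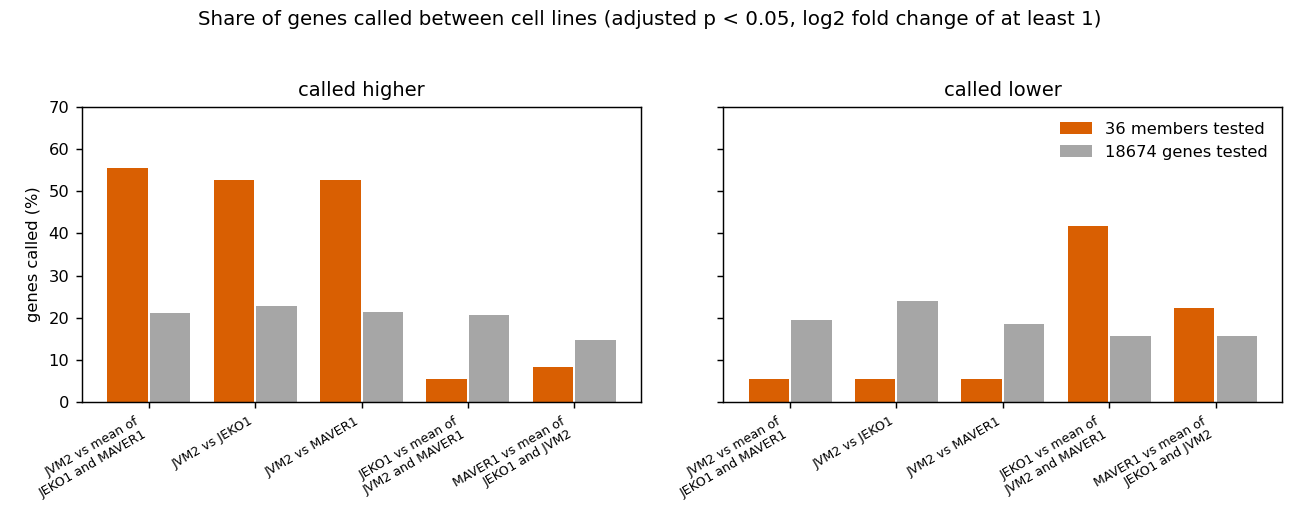
Share of genes called higher (left) and lower (right) in each comparison between lines (y axis, %), for the 36 members tested (orange) and the 18674 genes tested (grey). In the JVM2 comparisons 52.8 to 55.6% of the members were called higher, beside 21.1 to 22.8% of all genes.

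Among the 7 genes that feed back on p53, 3 were called higher in JVM2 and 1 lower. Beside this group and the role groups below, 21.1% of all genes were called higher and 19.5% lower. MDM2 marks p53 for degradation. Its values, given here and below in the order control, ironomycin, ibrutinib and both drugs, were 125, 149.8, 116 and 145 CPM in JVM2, 34.5, 32.0, 33.8 and 29.3 in JEKO1 and 44.7, 53.1, 49.9 and 49.7 in MAVER1. Every JVM2 library was above every other library, and the log2 fold change was 1.74 ± 0.08 (edgeR, adjusted p = 4.22e-09). CCNG1 encodes cyclin G1, which guides a phosphatase to MDM2. It was at 202, 251, 197 and 218 CPM in JVM2, 66.1, 67.3, 61.3 and 59.8 in JEKO1 and 55.2, 72.8, 55.4 and 67.1 in MAVER1, again with no overlap and with a log2 fold change of 1.78 ± 0.07 (edgeR, adjusted p = 8.17e-10). RPS27L is a ribosomal protein-like partner of MDM2. Its values were 59.8, 84.9, 67.2 and 83.4 CPM in JVM2, 21.4, 20.9, 19.5 and 18.4 in JEKO1 and 35.4, 43.7, 39.6 and 43.9 in MAVER1, so that JVM2 was highest, MAVER1 next and JEKO1 lowest with no overlap between lines. The log2 fold change was 1.36 ± 0.09 against the mean and 0.85 ± 0.10 against MAVER1 alone.

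MDM4, which binds p53 and blocks its activity, stood the other way round and was lower in JVM2. It was at 30.5, 34.2, 32.2 and 36.2 CPM in JVM2, 45.1, 73.0, 55.4 and 119 in JEKO1 and 48.3, 72.1, 55.3 and 96.3 in MAVER1. The 4 JVM2 values were all below the others, and JEKO1 and MAVER1 were highest in the libraries with both drugs. Its log2 fold change of -1.0001 ± 0.13 lay at the fold minimum (edgeR, adjusted p = 3.67e-05), and with 1 library left out it ran from -1.13 to -0.82 and missed the minimum in 5 of 12 fits, those without the JVM2, MAVER1 or JEKO1 library with both drugs or the JVM2 or MAVER1 library with ironomycin. It also missed it without the filter and, at -0.99, with DESeq2 or its size factors. TRIAP1, which restrains apoptosome formation, was at 29.1, 36.3, 33.6 and 33.4 CPM in JVM2, 21.8, 18.2, 23.7 and 16.4 in JEKO1 and 22.2, 14.7, 23.1 and 13.1 in MAVER1, above the other lines in every JVM2 library but short of the fold minimum (0.82 ± 0.13). FBXO22, a substrate adaptor of a ubiquitin ligase, was at 41.1, 47.1, 38.1 and 44.6 CPM in JVM2, 32.9, 30.3, 32.9 and 24.3 in JEKO1 and 38.1, 32.2, 37.5 and 33.5 in MAVER1, where the lowest JVM2 value was only just above the highest of MAVER1, at a log2 fold change of 0.40 ± 0.09. PPM1D, the phosphatase WIP1 that shuts the damage response off, overlapped, at 21.4 to 25.2 CPM in JVM2, 18.9 to 25.3 in JEKO1 and 24.5 to 28.1 in MAVER1, with a log2 fold change of -0.04 ± 0.08.

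Among the 7 members of cell cycle arrest, 3 were called higher in JVM2 and 1 lower. CDKN1A encodes p21, the inhibitor of cyclin-dependent kinases through which p53 halts the cycle. It was at 526, 628, 431 and 535 CPM in JVM2, 49.0, 77.6, 33.2 and 95.2 in JEKO1 and 79.4, 131, 55.8 and 141 in MAVER1. The lowest JVM2 value was above the highest value of either other line, and the log2 fold change was 2.83 ± 0.14 (edgeR, adjusted p = 7.74e-09). PLK2, a kinase of the polo family, was at 4.51, 6.89, 4.78 and 5.44 CPM in JVM2, 0.930, 0.550, 0.905 and 0.260 in JEKO1 and 0.138, 0.0537, 0.162 and 0.0792 in MAVER1. It was a weakly read gene everywhere and nearly unread in MAVER1, with 16 reads over its 4 libraries beside 782 in JVM2, and its log2 fold change was 4.36 ± 0.28 (edgeR, adjusted p = 8.97e-08). PLK3, of the same family, was at 17.6 to 26.5 CPM in JVM2, 5.33 to 7.31 in JEKO1 and 10.2 to 11.1 in MAVER1, with a log2 fold change of 1.34 ± 0.10.

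Not every arrest gene stood high in JVM2. CCNG2, which encodes cyclin G2 and is also known as a target of FOXO factors, was at 13.3, 11.7, 8.73 and 12.1 CPM in JVM2, 40.5, 42.9, 51.6 and 54.7 in JEKO1 and 14.3, 29.3, 14.9 and 31.6 in MAVER1. JVM2 was below both lines, with a log2 fold change of -1.49 ± 0.20 against the mean (edgeR, adjusted p = 3.82e-05), and the highest values were in JEKO1. BTG2, an antiproliferative gene and a classic p53 target, was at 153, 149, 107 and 114 CPM in JVM2, 165, 155, 146 and 179.6 in JEKO1 and 88.9, 98.1, 92.3 and 157 in MAVER1. Its ranges overlapped, and its log2 fold change was -0.01 ± 0.14 (edgeR, adjusted p = 0.977). SERTAD1, which binds CDK4 and acts with E2F factors, was at 13.2, 12.3, 13.01 and 10.9 CPM in JVM2, 9.40, 5.43, 9.98 and 4.85 in JEKO1 and 10.9, 4.94, 9.91 and 6.68 in MAVER1, where the lowest JVM2 value met the MAVER1 control. GADD45A, a stress sensor of arrest and repair, overlapped too, at 45.6 to 57.9 CPM in JVM2, 21.6 to 46.7 in JEKO1 and 22.0 to 33.2 in MAVER1, with a log2 fold change of 0.85 ± 0.14 that did not reach the minimum.

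Of the 4 DNA repair members, 3 were called higher in JVM2 and none of those overlapped the other lines. DDB2 and XPC encode the damage sensors that start nucleotide excision repair. DDB2, whose window above holds the paired half-sites, was at 118, 156, 109 and 136 CPM in JVM2, 52.1, 50.5, 50.3 and 40.6 in JEKO1 and 35.2, 25.1, 34.3 and 24.6 in MAVER1. All JVM2 values were above the others and MAVER1 was lowest, and the log2 fold change was 1.78 ± 0.12 (edgeR, adjusted p = 1.43e-07). XPC was at 86.3, 112, 90.2 and 119 CPM in JVM2, 41.8, 45.6, 44.6 and 41.6 in JEKO1 and 33.0, 35.9, 33.6 and 40.5 in MAVER1, with a log2 fold change of 1.36 ± 0.07 (edgeR, adjusted p = 1.83e-08). ASCC3, a helicase used in alkylation repair, was at 128, 149, 134 and 140.5 CPM in JVM2, 27.0, 23.3, 19.8 and 17.2 in JEKO1 and 29.7, 33.7, 30.8 and 30.5 in MAVER1, and its log2 fold change was 2.41 ± 0.09 (edgeR, adjusted p = 1.03e-09). POLH, the translesion polymerase eta, was slightly lower in JVM2, at 38.2 to 44.5 CPM beside 42.6 to 63.8 in JEKO1 and 52.9 to 57.5 in MAVER1, and did not reach the fold minimum.

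The 11 members of death receptors and apoptosis held the widest gaps, with 5 called higher in JVM2 (21.1% of all genes) and 6 not called. FAS, the receptor of FAS ligand, was at 96.2, 115, 118 and 129 CPM in JVM2, 0.226, 0.263, 0.151 and 0.260 in JEKO1 and 11.2, 11.7, 14.2 and 13.01 in MAVER1. The 3 lines were far apart, with 37 reads over all of JEKO1, 1861 over MAVER1 and 16520 over JVM2, and JVM2 was 8.96 ± 0.14 above JEKO1 and 3.19 ± 0.09 above MAVER1 on the log2 scale. TNFRSF10B, the TRAIL receptor DR5, was at 79.4, 106, 78.7 and 110.5 CPM in JVM2, 38.8, 55.7, 36.5 and 81.6 in JEKO1 and 28.5, 39.8, 26.2 and 47.4 in MAVER1. It was called higher in JVM2 by 1.15 ± 0.08 (edgeR, adjusted p = 2.2e-07), yet the JEKO1 library with both drugs reached the JVM2 range. TNFRSF10A, the other TRAIL receptor with a death domain, was highest in MAVER1, at 25.1 to 26.5 CPM beside 11.5 to 12.5 in JVM2 and 6.46 to 9.93 in JEKO1.

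EDA2R and SPATA18 were read almost only in JVM2. EDA2R encodes a TNF-family receptor for ectodysplasin A2 and was at 12.5, 21.5, 13.7 and 21.3 CPM in JVM2, with 0 reads in the 4 JEKO1 libraries and 1 read in MAVER1. With a floor of 3 reads per library, it was at least 235-fold higher in JVM2 than in JEKO1, and, with no floor, against MAVER1 the ratio of reads was 2569 (95% counting interval 461 to 101499). SPATA18, which takes part in mitochondrial quality control, was at 6.51, 13.5, 6.60 and 12.3 CPM in JVM2 and had 2 reads in JEKO1 and 2 in MAVER1. Its ratios were 802 (222 to 6632) against JEKO1 and 728 (201 to 6016) against MAVER1. The bound and the ratios are not on the same footing and give no order of JEKO1 and MAVER1. These intervals cover counting error only. Both genes were called higher in JVM2, where alone they had the reads needed to be tested. PHLDA3, which dampens AKT at the membrane, was at 57.3, 91.9, 77.7 and 102 CPM in JVM2, 2.84, 2.20, 1.43 and 1.09 in JEKO1 and 0.111, 0, 0.0539 and 0.0264 in MAVER1, with 7 reads over the 4 MAVER1 libraries beside 11918 in JVM2.

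The apoptosis members that were not called fell on both sides of 0. PIDD1, which builds the caspase-2 platform, was at 73.4, 99.4, 80.5 and 104 CPM in JVM2, 53.1, 54.7, 53.1 and 63.6 in JEKO1 and 55.6, 46.2, 53.2 and 47.0 in MAVER1, above the other lines in every JVM2 library but at a log2 fold change of 0.74 ± 0.10. APAF1, the core of the apoptosome, was likewise without overlap, at 31.2 to 40.0 CPM in JVM2, 17.2 to 24.4 in JEKO1 and 19.6 to 22.7 in MAVER1. AEN, an exonuclease of apoptotic DNA breakdown, was at 148, 165, 175 and 177 CPM in JVM2, 114, 95.3, 111 and 73.1 in JEKO1 and 204, 140.5, 185 and 117 in MAVER1. Its JVM2 values lay within the MAVER1 range. TP53I3, a quinone oxidoreductase also called PIG3, was at 12.7, 23.7, 15.02 and 24.9 CPM in JVM2, 40.1, 34.1, 36.7 and 28.6 in JEKO1 and 4.89, 3.49, 4.34 and 4.83 in MAVER1. JEKO1 was thus above JVM2 and MAVER1 below both, and the log2 fold changes of JVM2 were -0.89 ± 0.21 against JEKO1 and 2.11 ± 0.23 against MAVER1. TP53INP1, a stress protein of autophagy and cell death, was at 14.8, 20.4, 14.8 and 23.6 CPM in JVM2, 4.90, 16.9, 7.14 and 24.2 in JEKO1 and 44.0, 173, 73.1 and 237 in MAVER1. MAVER1 stood highest in every treatment, and JVM2 was -2.55 ± 0.25 against MAVER1 on the log2 scale.

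Of the 4 members of metabolism and antioxidant defence, 3 were called higher in JVM2. FDXR, the mitochondrial ferredoxin reductase that passes electrons for iron-sulfur cluster and steroid synthesis, was at 130.3, 183, 149 and 189 CPM in JVM2, 27.6, 20.3, 24.1 and 17.7 in JEKO1 and 32.7, 19.6, 30.8 and 17.3 in MAVER1. The distance of JVM2 from the other lines was widest in the libraries with ironomycin, and the log2 fold change over treatments was 2.83 ± 0.17 (edgeR, adjusted p = 5.18e-08). TIGAR, a phosphatase that turns glycolysis towards the pentose phosphate pathway, was at 30.3, 36.5, 31.9 and 34.6 CPM in JVM2, 22.2, 15.95, 17.3 and 11.3 in JEKO1 and 21.3, 13.02, 16.8 and 10.95 in MAVER1. All JVM2 values were above the others, at a log2 fold change of 1.11 ± 0.14 that fell short of 1 without the JVM2 library with both drugs (0.92) and, at 0.98, when totals without TMM scaled the libraries. CMBL, a hydrolase that activates prodrugs, was at 2.83, 5.77, 3.52 and 6.04 CPM in JVM2, 0.0503, 0.0478, 0.0251 and 0.0946 in JEKO1 and 0.0829, 0.0805, 0.0808 and 0.0264 in MAVER1. Only 9 reads in JEKO1 and 10 in MAVER1 stand behind the low values, beside 659 in JVM2. SESN1, a sestrin that restrains mTORC1 under stress, did not stand higher in JVM2, at 3.05 to 5.74 CPM beside 3.29 to 4.55 in JEKO1 and 5.75 to 9.07 in MAVER1.

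The 3 tested members of the last group, an RNA-binding, an antiviral and a secreted protein, were all called higher in JVM2. ZMAT3, an RNA-binding protein that acts in p53-dependent splicing, was at 95.3, 156, 99.8 and 160.1 CPM in JVM2, 16.9, 20.7, 15.7 and 19.5 in JEKO1 and 16.7, 27.2, 17.0 and 33.4 in MAVER1. JVM2 did not overlap the other lines, and the log2 fold change was 2.61 ± 0.09 (edgeR, adjusted p = 6.17e-10). TRIM22, an antiviral ubiquitin ligase that interferon also induces, was at 227, 272, 242 and 269 CPM in JVM2, 30.9, 44.5, 36.3 and 72.6 in JEKO1 and 69.9, 69.5, 73.7 and 101 in MAVER1, with a log2 fold change of 2.11 ± 0.12 (edgeR, adjusted p = 2.17e-08). GDF15, a secreted stress cytokine that the ATF4 and CHOP factors induce as well, was at 6.39, 23.5, 4.59 and 16.9 CPM in JVM2, 0.126, 2.06, 0 and 5.58 in JEKO1 and 0.111, 3.87, 0.135 and 7.65 in MAVER1. Here the lines did overlap, since JEKO1 and MAVER1 with both drugs reached the JVM2 libraries without ironomycin, and the log2 fold change over treatments was 3.41 ± 0.53 (edgeR, adjusted p = 0.000116).

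**Figure D3:**
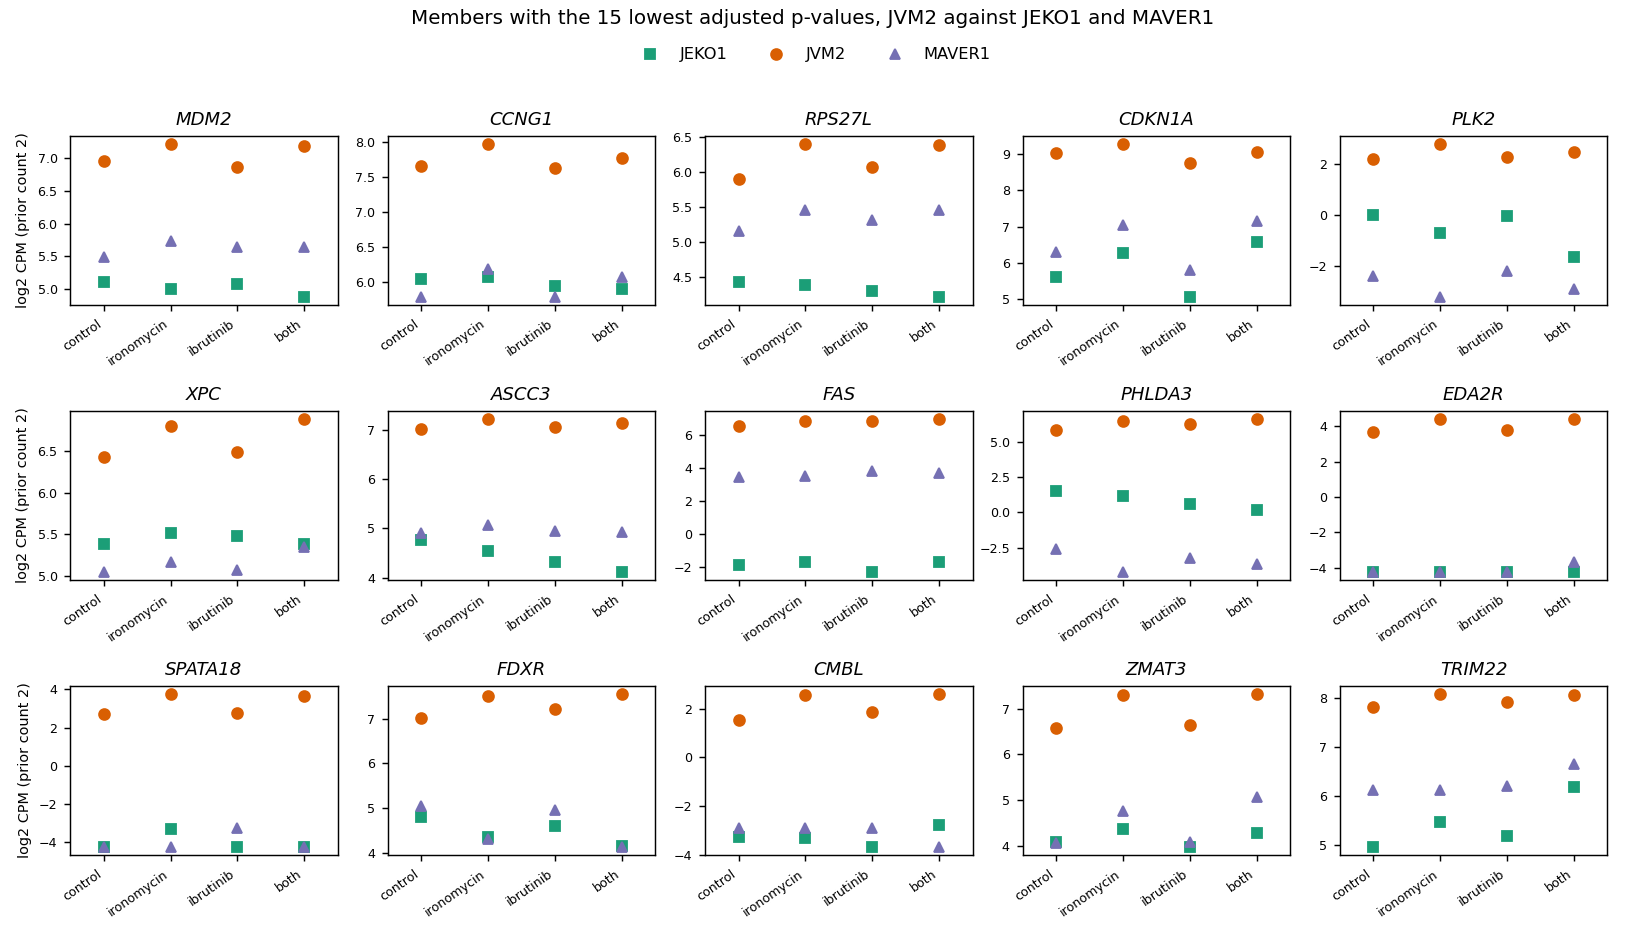
Log2 CPM (y axis, prior count of 2) in each of the 12 libraries for the 15 members with the lowest adjusted p in JVM2 against the other lines, by treatment (x axis), with 1 point per library. In each of the 15 panels the 4 JVM2 points (orange) lie above the JEKO1 (green) and MAVER1 (purple) points at every treatment.

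Other gene lists also differed between the lines. Of 12 interferon-stimulated genes, 11 were called higher in JVM2 than in the mean of the others (median log2 fold change 2.78), and of 12 NF-kB targets 9 were called higher and 1 lower (median 2.25). Beside these and the lists that follow, 21.1% of all genes were called higher and 19.5% lower. TRIM22 and FAS are known to respond to these pathways as well. The 25 cell cycle genes repressed through p53, p21 and the DREAM complex had a median of -0.01, with 2 called higher and 1 lower, and the 17 ATF4 and CHOP targets one of -0.36, with 4 called higher and 4 lower. Of 4 plasma cell markers, SDC1 and PRDM1 were above the other lines in every JVM2 library, SDC1 at 81.7 to 124 CPM beside 1.06 to 1.56 in JEKO1 and 36.2 to 58.5 in MAVER1 and PRDM1 at 51.9 to 65.3 beside 1.51 to 4.57 and 13.2 to 35.2, while XBP1 was highest in MAVER1 and TNFRSF17 overlapped. Of 4 epithelial or stromal markers, none was highest in JVM2, and PECAM1 had a CPM of 0 throughout. The part of these lists in the members' values was not tested.

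Of the 42 further p53 pathway genes listed, 38 were tested, and 11 of them were called higher and 3 lower in JVM2 than in the mean of the other lines. These are 28.9% and 7.89% of those tested, beside 21.1% and 19.5% of all genes. Those named here, with TP73 and CDKN2A above, are among the 12 with the lowest adjusted p-values. CDKN2A stood above the mean of the other lines only through MAVER1, which had at most 2 reads in a library. Every JVM2 library was below every JEKO1 library for it (17.5 to 32.6 against 89.9 to 132 CPM). The apoptosis effector BAX was at 214 to 254 CPM in JVM2, 50.3 to 58.9 in JEKO1 and 68.0 to 101 in MAVER1. STEAP3, a metalloreductase of iron uptake that p53 also induces, was at 33.1 to 37.9 CPM in JVM2, 0.251 to 0.578 in JEKO1 and 14.5 to 16.4 in MAVER1. ATR, the kinase of replication stress, was at 89.0 to 97.0, 28.96 to 39.9 and 46.3 to 50.5 CPM in the same order. The 3 genes called lower in JVM2 were SESN3, TP53BP2 and GADD45G. SESN3, a sestrin that FOXO factors induce, was at 0.308 to 0.512 CPM in JVM2, 32.6 to 54.9 in JEKO1 and 6.30 to 11.3 in MAVER1, and TP53BP2, a cofactor of p53 in apoptosis, at 12.9 to 16.2, 57.4 to 65.9 and 74.6 to 96.1 CPM. GADD45G had at most 8 reads in a JVM2 library, beside 0.452 to 4.16 CPM in JEKO1 and 3.34 to 18.1 in MAVER1. GADD45B, a stress sensor, and PERP, an apoptosis gene, were also called higher, at 109.7 to 134 and 3.57 to 4.77 CPM in JVM2.

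Over the 3 lines together, 0 to 3 members were called in each comparison of treatments. Here the cell line was a block, since the 4 libraries of a line come from the same cells. With both drugs against control, 2 members were called (5.56%), both higher, beside 6.29% of all genes called, 4.81% higher. The members thus stood near the share of all genes. GDF15 rose by 3.58 ± 0.77 on the log2 scale (edgeR, adjusted p = 0.00845) and TP53INP1 by 1.79 ± 0.29 (edgeR, adjusted p = 0.00373). With both drugs against ibrutinib, 3 members were called (8.33%), all higher, beside 4.66% of all genes called and 3.91% called higher. They were GDF15 (4.03 ± 0.79), TP53INP1 (1.41 ± 0.28) and CDKN1A (1.06 ± 0.19, edgeR, adjusted p = 0.00669). Both counts fell to 0 without JEKO1 and to 0 without MAVER1, while without JVM2 they were 5 and 4 (GDF15 then at 5.73 and 6.60). They were 0 and 0 without the block. The calls over all genes moved likewise, to 30 and 1 without JEKO1 and 22 and 6 without MAVER1. They were 1877 and 1439 of 17985 genes without JVM2, and 0 and 0 without the block.

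The single drugs gave no called member over the 3 lines. With ironomycin against control, DESeq2 called 2 members, beside 156 of all genes tested. In edgeR 0 of 36 members passed (0.214% of all genes), and 11 had an unadjusted p under 0.05. Without JVM2, 2 members were called, beside 369 of 17985 genes. With ibrutinib against control, edgeR and DESeq2 called 0 members and edgeR 0 genes of all (0.00%), and 1 member, CDKN1A, had an unadjusted p under 0.05, at a log2 fold change of -0.44 ± 0.19 and with a lower value than control in all 3 lines. With both drugs against ironomycin, edgeR and DESeq2 again called 0 members (0.00% of all genes in edgeR). TRIM22, TNFRSF10B and MDM4 had an unadjusted p under 0.05. The share of all genes with an unadjusted p under 0.05 was not counted in these 3 comparisons. The members named or counted at that threshold are therefore not read as a response.

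The ironomycin response of the members differed between JVM2 and the other lines. To test this, the effect of ironomycin was fitted within each line from the 2 libraries with it against the 2 without it, with 1 ibrutinib term, and the JVM2 effect was set against the mean of the JEKO1 and MAVER1 effects at an adjusted p under 0.05 with no fold minimum. Each 2 libraries were 1 with and 1 without ibrutinib, and not replicates of a condition. The spread in this fit therefore holds any differences in ibrutinib effect between lines or with ironomycin, beside noise. Of the 36 members, 13 passed (36.1%), beside 5.94% of all genes tested. In 9 of them the JVM2 effect was the higher one (2.38% of all genes) and in 4 the lower one (3.56% of all genes). The median difference was 0.33 over the 36 members and -0.01 over all genes. The count depended on single libraries. It was 3 without JVM2 control and 3 without the JVM2 library with both drugs, 6 without JVM2 ironomycin, 7 without MAVER1 control, 7 without MAVER1 ibrutinib, 8 without JEKO1 ibrutinib, 8 without the MAVER1 library with both drugs and at most 18 in the remaining fits. The calls over all genes moved as well, from 1109 to 260, 203, 368, 585, 539, 770 and 575 in the same order. They were 711 to 2314 in the remaining fits. DDB2, FDXR and TP53INP1 passed in all 12 fits that left out 1 library.

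In the 9 members with the higher JVM2 effect, the fitted effect in JVM2 was above 0 in all but SERTAD1, and the effects in JEKO1 and MAVER1 were below 0 in all but PIDD1 in JEKO1, although none of these within-line effects reached the fold minimum. FDXR had an ironomycin effect of 0.41 ± 0.10 in JVM2, -0.45 ± 0.11 in JEKO1 and -0.78 ± 0.11 in MAVER1. The values above show that all 4 libraries of JEKO1 and MAVER1 with ironomycin were below those without it, and the 2 JVM2 libraries with it were above those without. The difference between lines was 1.03 ± 0.12 (edgeR, adjusted p = 0.00125). TP53I3 had effects of 0.81 ± 0.14 in JVM2, -0.29 ± 0.14 in JEKO1 and -0.15 ± 0.17 in MAVER1, and the difference was 1.03 ± 0.18 (edgeR, adjusted p = 0.00888). Both JVM2 libraries with ironomycin stood above both without it, while the JEKO1 libraries went the other way. DDB2 had effects of 0.37 ± 0.09 in JVM2, -0.17 ± 0.09 in JEKO1 and -0.48 ± 0.09 in MAVER1, with a difference of 0.70 ± 0.11 (edgeR, adjusted p = 0.00399). Both JVM2 libraries with ironomycin were above both without it and both MAVER1 libraries below, while those of JEKO1 overlapped.

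TIGAR had effects of 0.19 ± 0.12 in JVM2, -0.54 ± 0.13 in JEKO1 and -0.67 ± 0.13 in MAVER1, and the difference of 0.79 ± 0.15 (edgeR, adjusted p = 0.0141) was lost without JVM2 control or the JVM2 library with both drugs (adjusted p up to 0.124). TRIAP1 had effects of 0.15 ± 0.11 in JVM2, -0.39 ± 0.11 in JEKO1 and -0.70 ± 0.11 in MAVER1, a difference of 0.70 ± 0.13 that was lost in 3 of 12 fits, without JVM2 control, JVM2 ironomycin or the JVM2 library with both drugs (adjusted p up to 0.109). For TP53I3 the call was lost without JVM2 control and without the JVM2 library with both drugs (adjusted p up to 0.0709). The apoptosis genes PIDD1 and AEN differed by 0.44 ± 0.10 and 0.59 ± 0.16. PIDD1 had effects of 0.41 ± 0.08 in JVM2, 0.15 ± 0.08 in JEKO1 and -0.22 ± 0.08 in MAVER1, while AEN had effects of 0.08 ± 0.13 in JVM2, -0.42 ± 0.13 in JEKO1 and -0.59 ± 0.13 in MAVER1. The ubiquitin ligase adaptor FBXO22 had effects of 0.21 ± 0.10 in JVM2, -0.27 ± 0.10 in JEKO1 and -0.20 ± 0.10 in MAVER1. It differed by 0.45 ± 0.12 and SERTAD1 by 0.70 ± 0.18, SERTAD1 being lower with ironomycin in every line and least so in JVM2 (-0.18 ± 0.15 in JVM2, -0.91 ± 0.15 in JEKO1 and -0.84 ± 0.15 in MAVER1). These 4 were close to the threshold, and left-out libraries cost PIDD1 its call in 5 of 12 fits, AEN in 8, FBXO22 in 10 and SERTAD1 in 10, with adjusted p up to 0.194, 0.304, 0.21 and 0.201.

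In the 4 members with the lower JVM2 effect, the effect was larger in JEKO1 and MAVER1. GDF15 had effects of 1.89 ± 0.39 in JVM2, 5.82 ± 0.82 in JEKO1 and 5.49 ± 0.71 in MAVER1. From 0 to 5 reads in the JEKO1 and MAVER1 libraries without ironomycin, it reached 86 to 290 reads in those with it, whereas in JVM2 it was already read in the control. With so few reads at the start the JEKO1 effect depended on single libraries, at 10.27 without JEKO1 control and 4.68 without JEKO1 ibrutinib, and the difference ran from -3.18 without JEKO1 ibrutinib to -5.995 without JEKO1 control. The difference was -3.77 ± 0.77 (edgeR, adjusted p = 0.0167), lost without JVM2 control, without the JVM2 library with both drugs or without MAVER1 ibrutinib (adjusted p up to 0.0979). TP53INP1 had effects of 0.56 ± 0.14 in JVM2, 1.77 ± 0.15 in JEKO1 and 1.83 ± 0.14 in MAVER1 and a difference of -1.24 ± 0.18 (edgeR, adjusted p = 0.00294). CDKN1A had effects of 0.28 ± 0.17 in JVM2, 1.10 ± 0.18 in JEKO1 and 1.03 ± 0.17 in MAVER1, with a difference of -0.78 ± 0.21 (edgeR, adjusted p = 0.0493). Its level in JVM2 stayed above every library of the other lines throughout. MDM4 had effects of 0.17 ± 0.13 in JVM2, 0.91 ± 0.13 in JEKO1 and 0.69 ± 0.13 in MAVER1 and a difference of -0.64 ± 0.16 (edgeR, adjusted p = 0.0427). The CDKN1A call was lost in 9 of 12 fits with 1 library left out and the MDM4 call in 10, with adjusted p up to 0.241 and 0.273.

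**Figure D4:**
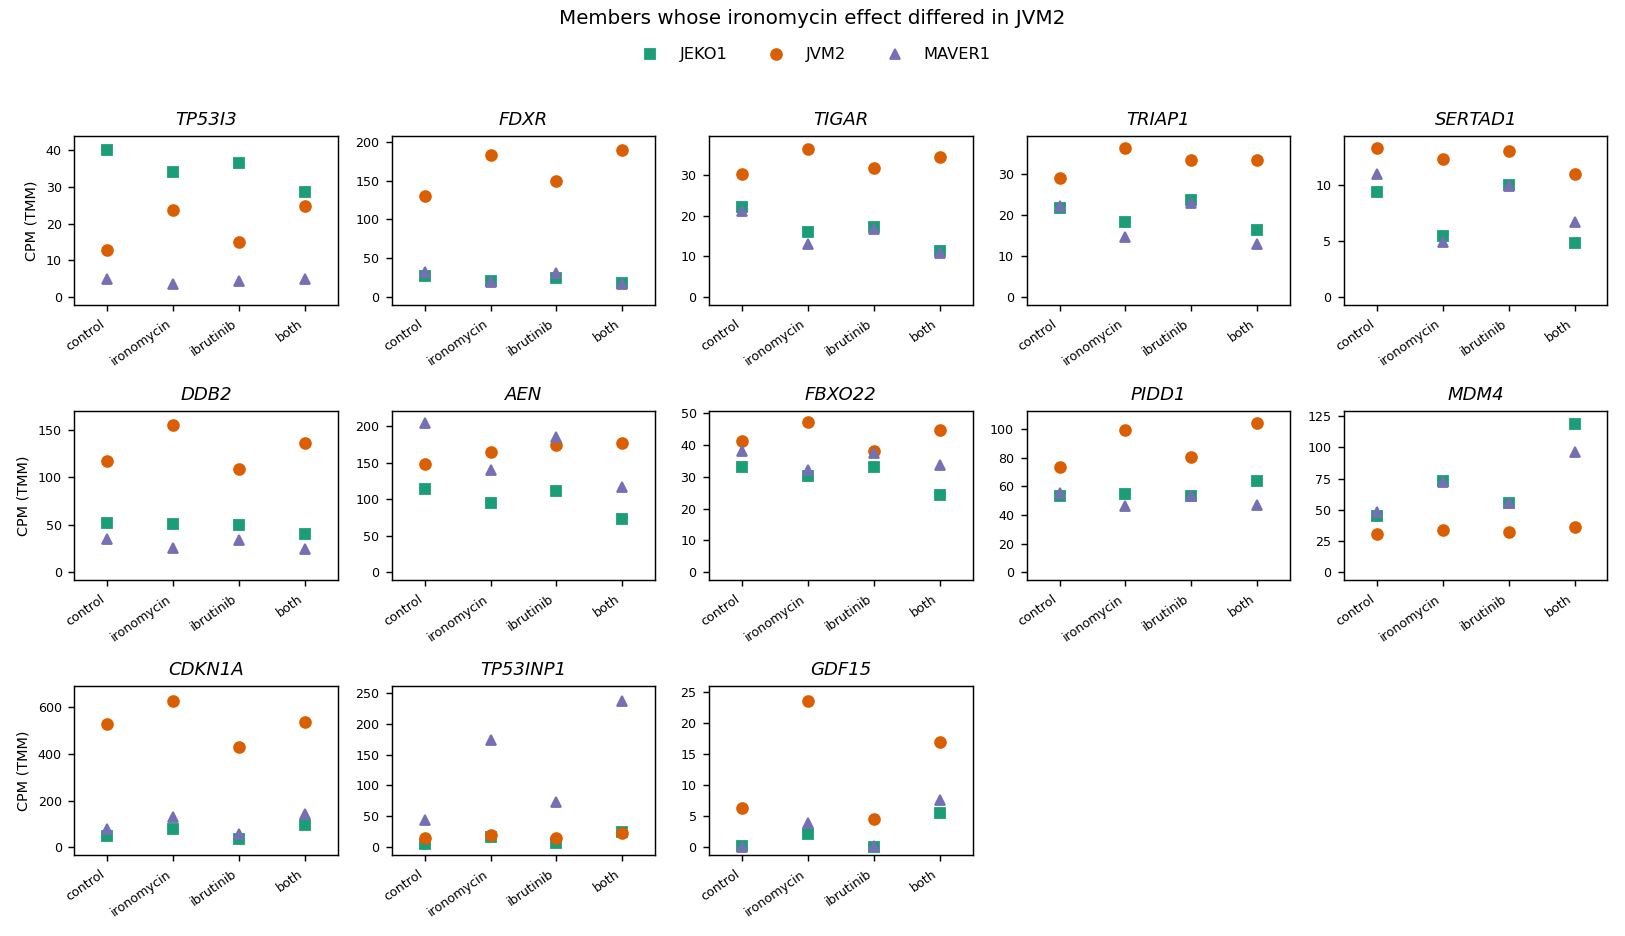
CPM (y axis, linear from 0) in each of the 12 libraries for the 13 members whose ironomycin effect differed between JVM2 and the other lines, by treatment (x axis), ordered from the highest to the lowest difference. In FDXR and TP53I3 the JVM2 points (orange) are higher with ironomycin or both drugs than without. In TP53INP1 and MDM4 the points of every line are higher with ironomycin, those of JEKO1 (green) and MAVER1 (purple) by more than those of JVM2.

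Within single lines, at the fold minimum, ironomycin changed 4 members in JEKO1, 1 in JVM2 and 4 in MAVER1, beside 7.63%, 0.648% and 6.56% of all genes. GDF15 rose in each line. CDKN1A and TP53INP1 rose in JEKO1 (edgeR, adjusted p = 0.00111 and 3.61e-05) and in MAVER1 (0.00104 and 1.12e-05). PLK2 fell in JEKO1 by 1.18 ± 0.32 and CCNG2 rose in MAVER1 by 1.06 ± 0.18. The JEKO1 count was 2 without its ibrutinib library, 2 without its library with both drugs (CDKN1A and PLK2 then missed the call) and 8 without its ironomycin library. Over all genes these fits called 841, 652 and 1991, beside 1425 in the main fit. CDKN1A in MAVER1 missed the fold minimum without the ibrutinib library of any line or without the MAVER1 library with both drugs, with values down to 0.82. The GDF15 call in JVM2 (edgeR, adjusted p = 0.0337) was lost in 6 of 12 fits, those without any 1 of the JVM2 libraries, MAVER1 control or MAVER1 ibrutinib (adjusted p up to 0.37), and DESeq2 did not make it.

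Small changes in JVM2 ran mostly 1 way. With no fold minimum, an alternative added after the values were seen, 9 members passed in JVM2 and all 9 were higher with ironomycin (GDF15, ZMAT3, SPATA18, CMBL, DDB2, XPC, PIDD1, TP53I3 and SESN1), beside 2.27% of all genes, 1.40% higher. In JEKO1 16 members passed, 7 of them higher, beside 33.3% of all genes (17.3% higher), and in MAVER1 14 passed, 8 of them higher, beside 32.3% (16.6% higher). Without any test, 32 of the 36 members were higher in the JVM2 library with ironomycin than in the JVM2 control, at a median log2 ratio of 0.33, beside 47.7% of all genes. The same count was 14 in JEKO1 (49.7% of all genes) and 17 in MAVER1 (49.0% of all genes). With both drugs it was 33 in JVM2 (48.6% of all genes), 13 in JEKO1 (51.9%) and 20 in MAVER1 (50.1%). These are ratios of 1 library to 1 library, and members of a line share its libraries. The counts include EDA2R, SPATA18 and CMBL, which had at most 4 reads in any JEKO1 or MAVER1 library. PHLDA3 had at most 4 and PLK2 at most 6 reads in a MAVER1 library. Such members rose in JVM2 but could hardly show a rise elsewhere, so the contrast between lines rests in part on them.

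**Figure D5:**
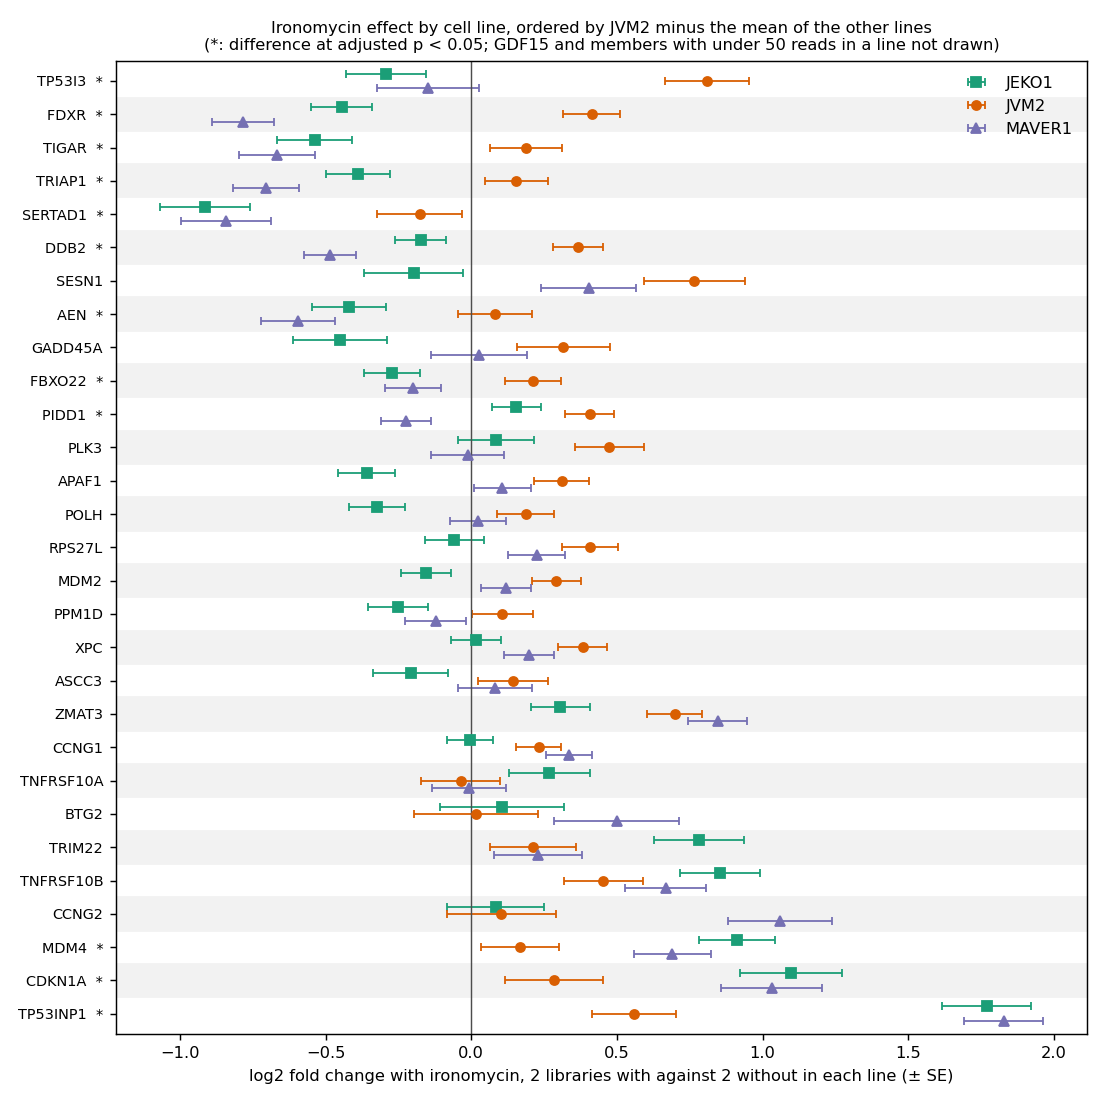
Ironomycin effect (x axis, log2 fold change ± SE, 2 libraries with against 2 without ironomycin) in JEKO1 (green squares), JVM2 (orange circles) and MAVER1 (purple triangles) for 29 members with at least 50 reads in each line, GDF15 not drawn, ordered by the difference of JVM2 from the mean of the others. JVM2 lies to the right of both other lines from TP53I3 at the top down to XPC and ASCC3, and to the left of both in MDM4, CDKN1A and TP53INP1 at the bottom.

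Other gene lists, which hold none of the members, moved unevenly with ironomycin as well. The 17 tested ATF4 and CHOP targets had median ironomycin effects of 1.57 in JEKO1, 1.05 in MAVER1 and 0.41 in JVM2. Of these targets, 10 were called higher in JEKO1 and 8 in MAVER1, beside 5.91% and 4.49% of all genes. The effect was lower in JVM2 than in the other lines in 6 of them, beside 3.56% of all genes. GDF15 and TNFRSF10B are known to respond to these factors too. The 25 p53-p21-DREAM repressed cell cycle genes had medians of -0.60 in JEKO1, -0.56 in MAVER1 and -0.24 in JVM2, with 3 called lower in MAVER1 (2.07% of all genes). Of the 12 interferon-stimulated genes, 8 had a lower ironomycin effect in JVM2 (3.56% of all genes). Of the 38 further p53 pathway genes tested, 2 had a higher and 4 a lower ironomycin effect in JVM2 (5.94% of all genes in either direction). The higher ones were BAX (0.46 ± 0.11) and RRM2B (0.59 ± 0.10), both p53 targets, the latter a ribonucleotide reductase subunit for repair. The lower ones were SESN2 (-1.07 ± 0.23), a stress sestrin, CASP8 (-0.59 ± 0.10), the initiator caspase of death receptors, and the acetyltransferases CREBBP (-0.45 ± 0.11) and EP300 (-0.42 ± 0.11). Of these 6 genes all but BAX were named for this call, after their values were seen. The part of these lists in the members' differences was not tested.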

How the data were processed

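RNA-seq was measured in 12 libraries, 1 for each of 3 MCL cell lines and 4 treatments. The table that the authors deposited holds whole-number read counts for Ensembl gene identifiers, not normalized. The labels name STAR, DESeq2 and GRCh37 without roles or versions, and the counter and its strand setting are not given in the sources used here. No column of the table was unused (0). Names were given to 52181 of 63677 genes.

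The 37 members and all other lists were chosen with earlier results of these data known. Counts were tested in R 4.3.3 with edgeR 4.0.16 (TMM, filterByExpr, quasi-likelihood test, Benjamini-Hochberg adjustment over 18674 genes), and CPM used the library totals (35448523 to 38630809 reads) times their TMM factors. Lines were compared with treatment as a term and treatments with line as a block, since all 4 libraries of a line derive from the same cells. Deviations of same-line libraries from their treatment mean had correlations of 0.926 to 0.976 (18 pairs), and those of different lines and treatments at -0.684 to -0.127 (36 pairs). The ironomycin effect was fitted within each line with 1 ibrutinib term.

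By the rule for named genes, all members were accounted for, with values in every library for members called in a comparison (for the lines, the 15 lowest adjusted p), for MDM2, MDM4, CDKN1A, BTG2, ZMAT3, FDXR, TNFRSF10B and GDF15, with at most 12 other p53 pathway genes named. A few genes that the rule names are not reported here. Counting intervals were exact at 95% and the floor was 3 reads. The other lists were ATF4 and CHOP targets, interferon-stimulated genes, NF-kB targets, cell cycle genes and cell type markers. Alternatives were other scalings and filters, DESeq2 1.42.0, the terms of the fit, the fold minimum and leaving out libraries or lines. Python 3.11.15 (pandas 2.3.3, matplotlib 3.10.9) served for the search of promoter windows and for the plots. Protein measurements of the study were not analysed here.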

Additional observations from a re-analysis of the deposited data

Results flagged for a closer look

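The ironomycin effect of 13 members differed between JVM2 and the mean of JEKO1 and MAVER1 by the test of that difference (edgeR quasi-likelihood test, 2 libraries with and 2 without ironomycin in each line). Each 2 libraries were 1 with and 1 without ibrutinib, and not replicates of a condition. The difference, JVM2 minus the others on the log2 scale, was 1.03 for TP53I3, 1.03 for FDXR, 0.79 for TIGAR, 0.70 for TRIAP1, 0.70 for SERTAD1, 0.70 for DDB2, 0.59 for AEN, 0.45 for FBXO22 and 0.44 for PIDD1, and -3.77 for GDF15, -1.24 for TP53INP1, -0.78 for CDKN1A and -0.64 for MDM4. The adjusted p ran from 0.00125 for FDXR to 0.0493 for CDKN1A in edgeR, and 5.94% of all genes tested passed the same test. The medium differed between JVM2 and the other lines, and the ironomycin dose between JEKO1 and the others, while JVM2 and MAVER1 had the same dose. The line and its medium cannot be told apart.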

How the results depend on the processing

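The 5 comparisons between lines kept their counts of called members within 1.5 times the values given under other scalings, filters, terms and tools and with 1 library left out (20 to 24 for JVM2 against the mean). Without the fold minimum they were 33 for JVM2 against JEKO1 and 33 against MAVER1, beside 78.3% and 71.2% of all genes. For JEKO1 and MAVER1 they were 29 and 29, beside 72.6% and 66.1% of all genes. Library totals in place of TMM moved the median of all genes in JVM2 against the mean from -0.02 to -0.15 and called 22 members. Ironomycin against control called 1 member with library totals, 2 without the filter, 2 with DESeq2 and 0 to 2 with 1 line left out. Over all genes it called 69, 189, 156 and 1 to 369 in the same order. Both drugs against control called 8 without the fold minimum (28.2% of all genes) and 0 without the replicate block. It called 0 from the libraries of these 2 treatments alone and 0 to 5 with 1 line left out. Both drugs against ibrutinib called 8 (23.3% of all genes), 0, 1 and 0 to 4 in the same order. Without the block, 0 of all genes were called in either comparison. The block changed no other count. With library totals, 86.5% of the genes called with both drugs against control were higher, beside 76.4% with TMM. The ironomycin effect called 16 members in JEKO1, 9 in JVM2 and 14 in MAVER1 without the fold minimum, and in JVM2 2 with library totals and 0 with DESeq2. With 1 library left out it called 2 to 8 in JEKO1, 0 to 1 in JVM2 and 3 to 18 for the difference of JVM2, which was 10 to 16 under the other alternatives. Over all genes that difference called 203 to 2314 with 1 library left out and 911 to 1750 under the other alternatives. No result turned its direction. Of the single members, 40 of 370 values lost a call and 330 did not. This tally holds only the lowest and highest value from each series of fits with 1 library or line left out. It therefore does not count every lost call. For the ironomycin difference of JVM2, FBXO22, SERTAD1 and MDM4 each lost the call in 10 of 12 fits with 1 library left out. The cause of these changes was not tested. With 1 library per line and treatment, and few reads of EDA2R, SPATA18, CMBL, PLK2, PHLDA3 and, without ironomycin, GDF15 outside JVM2, precision was limited by the libraries and for those genes by counting.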
